A study of Mus musculus with 18 samples.

Results

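The 10 genes described here are regulators and markers of trophoblast, the lineage that forms the fetal part of the placenta. They were chosen by symbol (Cdx2, Tead4, Tfap2c, Elf5, Ets2, Gcm1, Dlx3, Esx1, Hand1 and Plac1), and each had 1 row in a count table of 21995 genes. The table held bulk RNA-seq read counts of mouse embryonic stem cells (ESCs) in 6 groups of 3 libraries. Oct1 cKO cells (also called KO in the labels) were profiled at differentiation days 0, 2 and 6, and so were Parental cells (also called WT), against which they are compared. Differentiation was on 0.01% gelatin in medium with retinoic acid at 1.5 µg/ml, per the series' design text, and the day 0 libraries are labelled as ESCs. Oct1 is the protein of Pou2f1, a POU-domain factor that binds the octamer motif. The labels do not state what deletes Pou2f1, which part of it is deleted, whether the lines are single clones, or whether libraries of 1 group are separate cultures, so p-values measure a library-to-library spread that may be technical.

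Total counts ran from 13694126 to 19296966 per library. Levels are given as CPM (read counts scaled to a common library size), scaled by edgeR's TMM factors, and a gene is called changed at an adjusted p under 0.05 in edgeR's quasi-likelihood test with Benjamini-Hochberg adjustment over the 18352 genes tested. Pou2f1 itself averaged 79.3, 59.7 and 42.0 CPM in Oct1 cKO libraries at days 0, 2 and 6, against 129, 103 and 63.4 CPM in parental libraries. Its log2 fold changes were -0.70, -0.78 and -0.60, all called, so the transcript was lower but not absent, and reads from exons that were not deleted would be counted here. At day 0 both genotypes had the ESC transcripts their label implies, with Pou5f1 at 1517 CPM on average in Oct1 cKO and 893 CPM in parental libraries. Replicate 3 of the Oct1 cKO day 0 group stood apart from the other two, with a chi-square statistic per degree of freedom of 10.8 and 10.4 against them, where the other two differed by 1.22. Calls of the 10 genes that were lost without that library are given with their values.

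In the mouse blastocyst, TEAD4 with the coactivator YAP turns on Cdx2 in outer cells, and CDX2, TFAP2C, ELF5 and ETS2 then maintain trophoblast stem cells. Those cells differentiate into giant cells, which need HAND1, and into the syncytiotrophoblast of the labyrinth, where GCM1 drives cell fusion and DLX3 and ESX1 act in labyrinth growth and structure. ESCs form trophoblast poorly. Several of the 10 genes have roles elsewhere, Cdx2 in the tail bud and gut, Hand1 in lateral plate mesoderm and heart, Dlx3 and Tfap2c in surface ectoderm, so a transcript level alone does not name a cell type. In bulk RNA, more cells of a type and more RNA per cell cannot be told apart.

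The promoter windows of RefSeq (build GRCm38.p6, 250 bases before to 50 after a start) covered 6 of the 10 genes in 8 windows. The motifs searched, on both strands, were the octamer ATGCAAAT, bound by Oct1, GGAATG, the core bound by TEAD factors, and AGGTCA, the half-site bound by retinoic acid receptors. The octamer was in 1.74% of 32851 mouse windows, the TEAD core in 14.7% and the half-site in 16.3%. The stretches below hold each match that lies upstream of its window's RefSeq start and outside the GENCODE exons of the gene. They run 5′ to 3′ along the gene's strand, lie upstream of that start, and have the motif in capitals. They lie at chr5:147307349-147307436 on the minus strand, chrX:53114606-53114655 on the minus strand and chr9:78051865-78051923 on the plus strand.
Cdx2: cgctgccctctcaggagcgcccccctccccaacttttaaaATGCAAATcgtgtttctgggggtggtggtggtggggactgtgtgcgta
Plac1: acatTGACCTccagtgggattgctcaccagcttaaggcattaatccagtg
Gcm1: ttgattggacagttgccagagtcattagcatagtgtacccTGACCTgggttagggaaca
The Cdx2 octamer begins 147 bases upstream of the start, and Cdx2 was the only 1 of the 6 genes with an octamer in its window. The capitals in Plac1 and Gcm1 are the half-site read on the other strand, 246 and 53 bases upstream. The Plac1 stretch belongs to a start inside the gene, and the window at the outer start of Plac1 (chrX:53240061-53240360) held none of the 3 motifs. A TEAD core was in 1 Elf5 window, 173 bases upstream of the RefSeq start. It lies inside a GENCODE exon of Elf5 and is not printed. The Ets2 and Esx1 windows had none of the 3 motifs. No 2 matches overlapped. They are letters in a window and do not show binding.

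By day 6, 9 of the 10 genes were higher in Oct1 cKO than in parental cells, by 2.66-fold to 12.01-fold, and the 10th, Gcm1, was at or near 0 in both. Earlier the 10 genes had no common direction, with as many called higher as lower at day 0 and again at day 2. Tfap2c, Esx1, Dlx3, Plac1 and Hand1 were each lower in Oct1 cKO cells at 1 or more of the early days and higher at day 6. The plot of CPM by library shows these crossings.

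**Figure D1:**
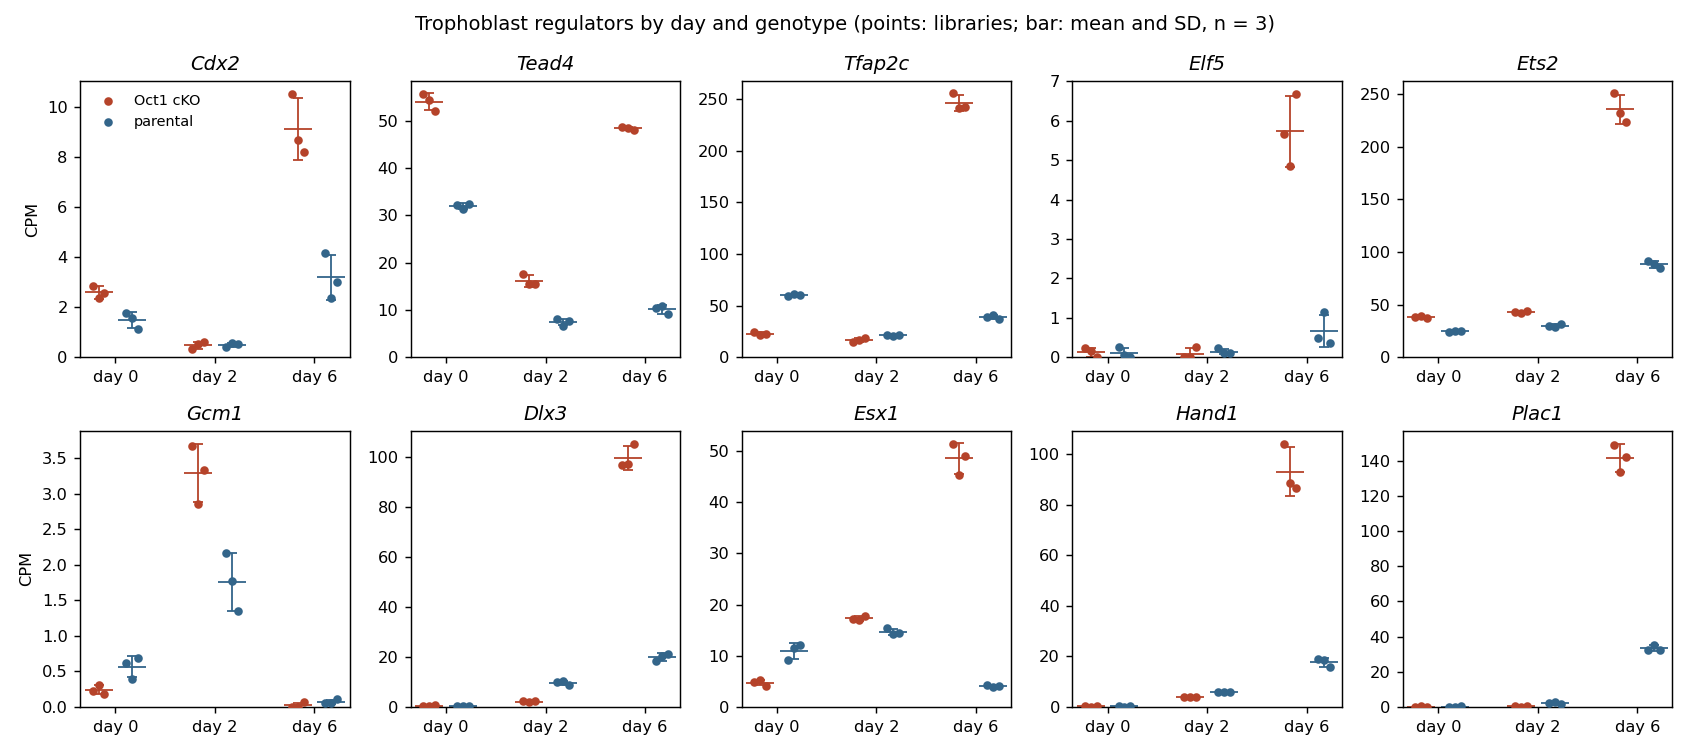
CPM of each of the 10 genes (vertical axes, linear, each with its own range) at days 0, 2 and 6 in Oct1 cKO (red) and parental (blue) libraries; points are libraries, and bars are the mean and SD of 3. At day 6 the Oct1 cKO points lie above all parental points in 9 panels, and Gcm1 is high at day 2 only.

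Tead4 (ENSMUSG00000030353, chr6:128224288-128300823, minus strand, GRCm38) encodes the DNA-binding partner of YAP that acts first in trophectoderm specification. It had 55.8, 54.4 and 52.1 CPM in Oct1 cKO libraries at day 0, against 32.3, 31.3 and 32.3 CPM in parental libraries. At day 2 Tead4 had 17.6, 15.5 and 15.4 CPM in Oct1 cKO, against 8.05, 6.67 and 7.62 CPM in parental libraries. At day 6 Tead4 had 48.7, 48.5 and 48.2 CPM in Oct1 cKO, against 10.4, 10.9 and 9.14 CPM in parental libraries. The genotypes did not overlap on any day, and Oct1 cKO cells were higher each time. Tead4 gave log2 fold changes, Oct1 cKO over parental, of 0.76 ± 0.06 (SE) at day 0 (adjusted p = 1.16e-12), 1.11 ± 0.09 at day 2 (1.17e-13) and 2.26 ± 0.07 at day 6 (2.41e-26). Tead4 fell between days 0 and 2 in both genotypes, by 1.74 ± 0.07 in Oct1 cKO and by 2.10 ± 0.08 in parental cells on the log2 scale. By day 6 the Oct1 cKO level was near that of day 0, 0.16 ± 0.06 lower on the log2 scale, a call lost without Oct1 cKO day 0 replicate 1 (-0.13, adjusted p = 0.0748). The parental level stayed 1.66 ± 0.08 below day 0. Gm21893 overlaps Tead4 on the other strand, and without a stated strand setting their reads cannot be told apart.

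Cdx2 (ENSMUSG00000029646, chr5:147300805-147307270, minus strand) encodes the caudal-type homeobox factor needed for trophectoderm. Its levels were low throughout. At day 0 Cdx2 had 2.86, 2.35 and 2.57 CPM in Oct1 cKO libraries, against 1.75, 1.58 and 1.12 CPM in parental libraries. At day 2 every library was under 1 CPM, from 0.317 to 0.602 CPM in Oct1 cKO and from 0.407 to 0.556 CPM in parental libraries. At day 6 Cdx2 had 10.5, 8.69 and 8.20 CPM in Oct1 cKO, against 4.18, 2.39 and 3.03 CPM in parental libraries. The genotypes were apart at days 0 and 6 and overlapped at day 2. Cdx2 gave log2 fold changes, Oct1 cKO over parental, of 0.81 ± 0.24 at day 0 (adjusted p = 0.00488), -0.06 ± 0.42 at day 2 (0.913, not called) and 1.51 ± 0.15 at day 6 (2.81e-11). Both genotypes passed through a minimum at day 2, and the parental day 6 libraries overlapped the Oct1 cKO day 0 libraries.

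Tfap2c (ENSMUSG00000028640, chr2:172549593-172558622, plus strand) encodes an AP-2 factor of trophectoderm that also acts in germ cells and surface ectoderm. At day 0 Tfap2c had 24.4, 21.7 and 22.5 CPM in Oct1 cKO libraries, against 59.1, 61.4 and 60.5 CPM in parental libraries. At day 2 Tfap2c had 14.5, 16.6 and 18.7 CPM in Oct1 cKO, against 22.0, 20.1 and 21.1 CPM in parental libraries. At day 6 Tfap2c had 255, 241 and 242 CPM in Oct1 cKO, against 39.2, 40.5 and 36.6 CPM in parental libraries. The Oct1 cKO libraries were the lower ones at days 0 and 2 and the higher ones at day 6, with no overlap on any day. Tfap2c gave log2 fold changes, Oct1 cKO over parental, of -1.40 ± 0.07 at day 0 (adjusted p = 1.47e-19), -0.35 ± 0.08 at day 2 (0.000136) and 2.67 ± 0.06 at day 6 (4.44e-32). With library sizes that were not scaled, the day 2 value became -0.54.

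Ets2 (ENSMUSG00000022895, chr16:95702075-95721051, plus strand) encodes an ETS factor that supports trophoblast stem cell renewal and is also widely expressed. At day 0 Ets2 had 37.8, 38.8 and 37.0 CPM in Oct1 cKO libraries, against 23.6, 25.3 and 25.1 CPM in parental libraries. At day 2 Ets2 had 43.0, 41.7 and 44.1 CPM in Oct1 cKO, against 30.1, 28.4 and 31.6 CPM in parental libraries. At day 6 Ets2 had 251, 232 and 224 CPM in Oct1 cKO, against 91.5, 88.8 and 85.0 CPM in parental libraries. Like Tead4, Ets2 was higher in every Oct1 cKO library than in any parental library of the same day. Ets2 gave log2 fold changes, Oct1 cKO over parental, of 0.62 ± 0.07 at day 0 (adjusted p = 3.18e-10), 0.51 ± 0.06 at day 2 (1.59e-09; 0.32 with library sizes not scaled) and 1.41 ± 0.05 at day 6 (2.59e-25).

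Elf5 (ENSMUSG00000027186, chr2:103411688-103450989, plus strand) encodes an ETS-domain factor whose promoter is methylated and silent in ESCs and open in trophoblast. At days 0 and 2 it was between 0 and 0.267 CPM in all 12 libraries. At day 6 Elf5 had 5.66, 4.87 and 6.67 CPM in Oct1 cKO libraries (95, 84 and 105 counts), against 0.498, 1.14 and 0.366 CPM in parental libraries (10, 22 and 7 counts). Elf5 gave a log2 fold change at day 6 of 3.09 ± 0.31 (adjusted p = 2.91e-10), and the groups did not overlap. Elf5 was near the filter on low counts: it passed the level of 0.577 CPM in 3 Oct1 cKO day 6 libraries and 1 parental day 6 library only, so its being tested depended on the group in which it was high. Its differences at day 0 (0.23 ± 1.15, adjusted p = 0.892) and day 2 (-0.75 ± 1.06, 0.547) rest on a few counts.

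Among the genes of differentiated trophoblast, Hand1 (ENSMUSG00000037335, chr11:57828705-57832818, minus strand) encodes the basic helix-loop-helix factor of giant cells. At day 0 Hand1 was under 0.5 CPM in all 6 libraries. At day 2 Hand1 had 3.99, 4.02 and 3.88 CPM in Oct1 cKO libraries, against 5.74, 5.96 and 5.93 CPM in parental libraries. At day 6 Hand1 had 104, 88.7 and 86.5 CPM in Oct1 cKO, against 18.8, 18.6 and 15.7 CPM in parental libraries. Both genotypes gained Hand1 by day 2, with the Oct1 cKO libraries all below the parental ones, and the order was the opposite at day 6. Hand1 gave log2 fold changes, Oct1 cKO over parental, of -0.33 ± 0.63 at day 0 (adjusted p = 0.696, not called), -0.57 ± 0.15 at day 2 (0.00141) and 2.39 ± 0.08 at day 6 (1.18e-25).

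Dlx3 (ENSMUSG00000001510, chr11:95120119-95125296, plus strand) encodes a distal-less homeobox factor of the labyrinth, which also acts in skin. At day 0 Dlx3 was between 0.314 and 0.628 CPM in Oct1 cKO libraries and between 0.372 and 0.438 CPM in parental libraries. At day 2 Dlx3 had 2.28, 1.87 and 2.34 CPM in Oct1 cKO, against 9.95, 10.4 and 8.72 CPM in parental libraries. At day 6 Dlx3 had 96.9, 97.1 and 105 CPM in Oct1 cKO, against 18.3, 20.6 and 21.0 CPM in parental libraries. The genotypes overlapped at day 0 and were apart after that, in opposite orders at days 2 and 6. Dlx3 gave log2 fold changes, Oct1 cKO over parental, of 0.24 ± 0.42 at day 0 (adjusted p = 0.678, not called), -2.17 ± 0.14 at day 2 (7.94e-17) and 2.32 ± 0.07 at day 6 (2.76e-28). Hand1 and Dlx3 both lie on chromosome 11, where 974 genes at or above 5 CPM had median log2 fold changes of -0.38, -0.37 and -0.39 at days 0, 2 and 6, below the median of every other autosome. The day 6 differences of both genes run against that shift, and its part in their day 2 differences was not tested.

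Esx1 (ENSMUSG00000023443, chrX:137115397-137122083, minus strand) encodes an X-linked homeobox factor of the labyrinth. At day 0 Esx1 had 4.81, 5.18 and 4.14 CPM in Oct1 cKO libraries, against 9.13, 11.6 and 12.03 CPM in parental libraries. At day 2 Esx1 had 17.2, 16.9 and 17.9 CPM in Oct1 cKO, against 15.3, 14.2 and 14.4 CPM in parental libraries. At day 6 Esx1 had 51.3, 45.3 and 49.1 CPM in Oct1 cKO, against 4.23, 3.84 and 4.02 CPM in parental libraries. Esx1 climbed at each day in Oct1 cKO cells, whereas in parental cells it was highest at day 2 and lowest at day 6. Esx1 gave log2 fold changes, Oct1 cKO over parental, of -1.22 ± 0.12 at day 0 (adjusted p = 8.69e-11), 0.24 ± 0.09 at day 2 (0.0136) and 3.59 ± 0.09 at day 6 (2.23e-29), the widest of the 10 genes. The small day 2 difference was lost under DESeq2 (0.20, adjusted p = 0.0574), with library sizes not scaled (0.05, 0.629), and without Oct1 cKO day 2 replicate 3 (0.21, 0.0569), parental day 2 replicate 2 (0.20, 0.0630) or parental day 2 replicate 3 (0.21, 0.0600).

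Plac1 (ENSMUSG00000061082, chrX:53069995-53240111, minus strand), the other X-linked gene, encodes a secreted or membrane-bound placental protein needed for normal placental growth. At day 0 Plac1 was between 0.113 and 0.248 CPM in all 6 libraries. At day 2 Plac1 had 0.317, 0.175 and 0.334 CPM in Oct1 cKO libraries, against 2.08, 2.63 and 1.79 CPM in parental libraries. At day 6 Plac1 had 149, 133 and 142 CPM in Oct1 cKO, against 32.3, 35.2 and 32.6 CPM in parental libraries. The parental libraries had already left the day 0 level at day 2 while the Oct1 cKO libraries overlapped it. Plac1 gave log2 fold changes, Oct1 cKO over parental, of 0.40 ± 0.63 at day 0 (adjusted p = 0.647, not called), -2.96 ± 0.30 at day 2 (5.59e-11) and 2.08 ± 0.06 at day 6 (3.77e-28). The median over 415 X-linked genes at or above 5 CPM was 0.04 at day 6 and 0.05 at day 2.

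Gcm1 (ENSMUSG00000023333, chr9:78051924-78065624, plus strand), encoding the factor that drives syncytiotrophoblast formation, had a different course from the other 9. At day 0 Gcm1 had 0.226, 0.314 and 0.188 CPM in Oct1 cKO libraries, against 0.625, 0.394 and 0.682 CPM in parental libraries. At day 2 Gcm1 had 3.68, 2.86 and 3.34 CPM in Oct1 cKO, against 2.17, 1.77 and 1.35 CPM in parental libraries. At day 6 Gcm1 had 0, 0 and 0.0636 CPM in Oct1 cKO, against 0.0498, 0.0519 and 0.105 CPM in parental libraries, which is 1 count against 4 over 3 libraries each. Gcm1 was thus a low transcript with a maximum at day 2 in both genotypes, higher there in every Oct1 cKO library. Gcm1 gave a log2 fold change, Oct1 cKO over parental, of 0.89 ± 0.20 at day 2 (adjusted p = 0.000245). Its day 0 value was -1.21 ± 0.49 (adjusted p = 0.0368), a call lost under DESeq2 (-1.21, 0.0671) and without Oct1 cKO day 0 replicate 1 (-1.18, 0.0814) or 3 (-1.04, 0.133), or parental day 0 replicate 1 (-1.13, 0.0883) or 3 (-1.06, 0.116). The day 6 ratio was 0.294 with a 95% counting interval from 0.00597 to 2.97, so a difference was not detectable at this depth. Within Oct1 cKO cells Gcm1 had 1 count at day 6 against 157 at day 2, and the ratio of day 2 to day 6 was 163 with an interval from 28.9 to 6489. In parental cells the fall between days 2 and 6 was by 4.56 ± 0.44 on the log2 scale (4 counts against 110).

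The order of the 6 groups differed between genes. Oct1 cKO day 6 was the highest group for Cdx2, Tfap2c, Elf5, Ets2, Hand1, Dlx3, Esx1 and Plac1, and second to Oct1 cKO day 0 for Tead4. Parental day 6 was the second group for Elf5, Ets2, Hand1, Dlx3 and Plac1 without overlap, but the lowest for Esx1, where it overlapped Oct1 cKO day 0. For Tfap2c the second group was parental day 0. Per kilobase of exon, a scale on which genes can be compared, mean levels at day 6 in Oct1 cKO were 102 CPM per kilobase for Plac1, 66.9 for Tfap2c, 46.6 for Hand1, 40.7 for Ets2 and 38.3 for Dlx3. On that scale the Oct1 cKO day 6 level was 24.5 for Esx1, 13.5 for Tead4, 4.04 for Cdx2, 0.975 for Elf5 and 0.0102 for Gcm1. The parental day 6 levels, in CPM per kilobase, were 24.0 for Plac1, 15.3 for Ets2, 10.5 for Tfap2c and 8.86 for Hand1, and the other 6 were below 8. Cdx2 and Elf5, which with Tfap2c define trophoblast stem cells, were thus the lowest of the 9 genes that were higher at day 6.

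Counted over the 10 genes, 6 were called between genotypes at day 0, against 53.5% of all genes tested: 3 were higher, against 26.4% of all genes, and 3 lower, against 27%. Of 12 fibroblast genes, 11 were lower in Oct1 cKO at day 0 and 1 was not called, with sums of 647.5 to 700.0 CPM in Oct1 cKO and 1591 to 1670 CPM in parental libraries. At day 2, 8 were called, against 67.3% of all genes: 4 were higher, against 33.7%, and 4 lower, against 33.6%. Of 15 pluripotency genes, 13 were higher in Oct1 cKO at day 2 and 2 were not called, with sums of 3121 to 3279 CPM in Oct1 cKO and 1313 to 1373 CPM in parental libraries. The part of these cell types in the differences of the 10 genes at days 0 and 2 was not tested. At day 6, 9 were called, all of them higher, against 36.7% of all genes called higher, 37.8% lower and 74.5% in either direction. The groups did not overlap for 9 of the 10 genes at day 6, as for 76.8% of all genes. The median log2 fold change at day 6 was 2.29 for the 10 genes and 0.00 over all genes tested. The number called either way was thus near the background, and all the calls lay on 1 side. With library sizes not scaled, the medians of all genes moved to -0.20 at day 2 and -0.19 at day 6, the split at day 2 became 4263 higher to 8187 lower against 6187 to 6172, and that at day 6 became 5241 to 8414 against 6740 to 6940. The 9 day 6 calls held with that setting and in the other alternatives run.

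**Figure D2:**
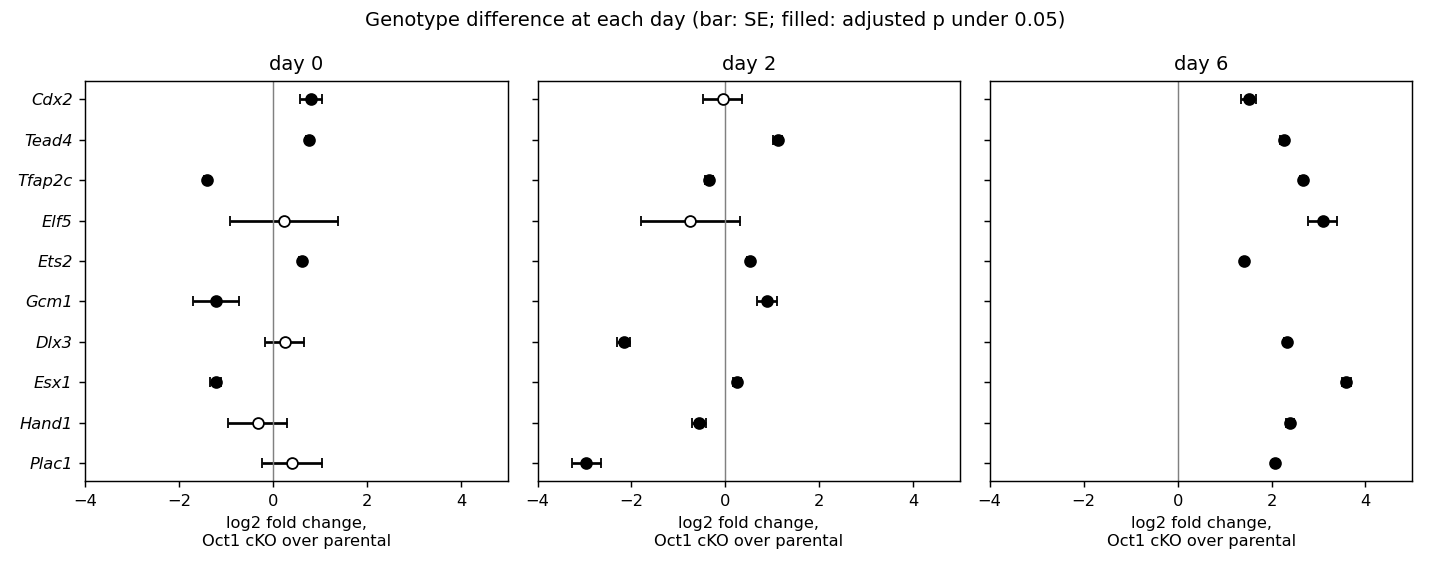
Log2 fold change of Oct1 cKO over parental (horizontal axis) for each of the 10 genes at days 0, 2 and 6 (panels); bars are SE, and filled points have adjusted p under 0.05 in edgeR. Gcm1, with 1 count at day 6 in Oct1 cKO, is not drawn in the day 6 panel. Points lie on both sides of 0 at days 0 and 2, and at day 6 the 9 called genes lie between 1.41 and 3.59.

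Most of this difference arose between days 2 and 6. In that interval 9 of the 10 genes rose in Oct1 cKO cells, against 39.6% of all genes, and 1 fell, against 41.6%. In parental cells 8 rose, against 42.6%, and 2 fell, against 36.9%. Plac1 rose by 8.99 ± 0.13 on the log2 scale in Oct1 cKO and by 3.94 ± 0.10 in parental cells. Dlx3 rose by 5.53 ± 0.10 in Oct1 cKO and by 1.04 ± 0.08 in parental cells, and Hand1 by 4.55 ± 0.11 in Oct1 cKO and by 1.59 ± 0.11 in parental cells. All 3 rose in both genotypes, by more in Oct1 cKO. Esx1 moved in opposite directions, with 1.49 ± 0.08 in Oct1 cKO and -1.86 ± 0.11 in parental cells. Among the stem cell regulators, Tfap2c rose by 3.89 ± 0.07 in Oct1 cKO and 0.88 ± 0.07 in parental cells, and Cdx2 by 4.23 ± 0.24 in Oct1 cKO and 2.66 ± 0.26 in parental cells. Ets2 rose by 2.46 ± 0.05 in Oct1 cKO and 1.56 ± 0.06 in parental cells, and Tead4 by 1.58 ± 0.07 in Oct1 cKO and 0.44 ± 0.09 in parental cells (0.26 with library sizes not scaled). These 4 regulators, like the placental genes, rose by more in Oct1 cKO cells. The test of the difference between the genotypes' changes over this interval called all 9 genes as higher in Oct1 cKO, against 31.5% of all genes. Gcm1 was not called in that test (-2.36 ± 1.24, adjusted p = 0.0962). Elf5 rose by 5.98 ± 0.49 in Oct1 cKO and 2.15 ± 0.63 in parental cells. The parental rise of Elf5 was lost without parental day 6 replicate 2 (1.48, adjusted p = 0.0514), and its Oct1 cKO rise became 9.62 without Oct1 cKO day 2 replicate 3, the only library of that group with Elf5 counts.

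**Figure D3:**
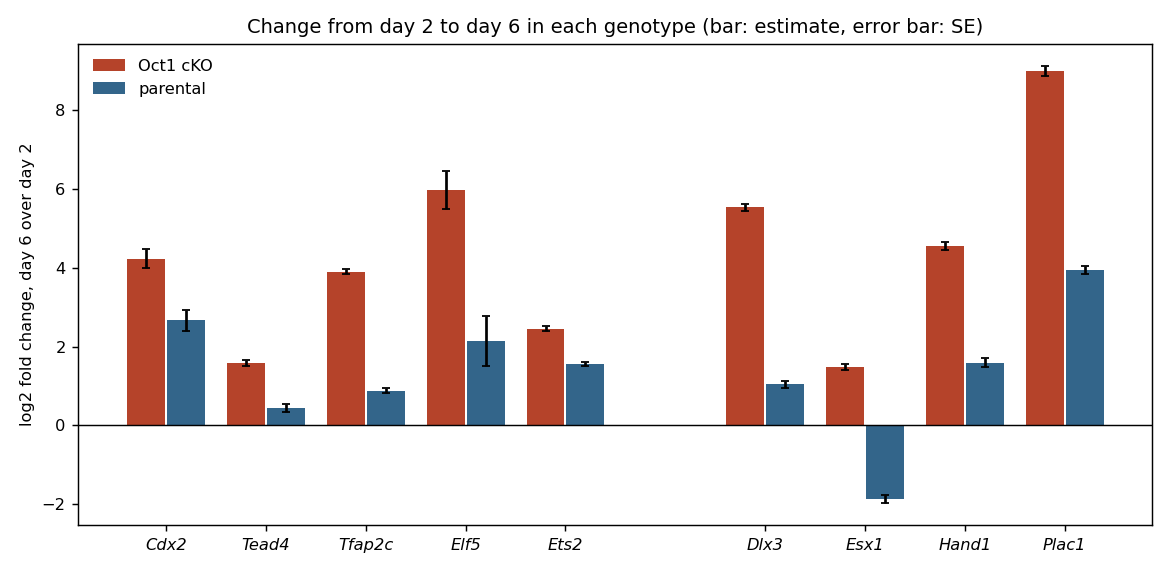
Log2 fold change of day 6 over day 2 (vertical axis) in Oct1 cKO (red) and parental cells (blue); bars start at 0 and error bars are SE. Stem cell regulators are on the left and genes of differentiated trophoblast on the right, and Gcm1, with 1 count at day 6 in Oct1 cKO, is not drawn. Each red bar is above its blue one, and Esx1 has bars on both sides of 0.

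The first 2 days went differently. In Oct1 cKO cells 5 genes rose, against 41% of all genes, and 3 fell, against 35.5%. In parental cells 6 rose, against 43.2%, and 3 fell, against 37.7%. Hand1 rose by 4.02 ± 0.34 on the log2 scale in Oct1 cKO and 4.26 ± 0.27 in parental cells, changes that were not called different (-0.24 ± 0.70, adjusted p = 0.801). Dlx3 rose by 2.16 ± 0.29 in Oct1 cKO and 4.57 ± 0.19 in parental cells. Plac1 was not called in Oct1 cKO (0.33 ± 0.57, adjusted p = 0.626) and rose by 3.69 ± 0.34 in parental cells. For Dlx3 and Plac1 the change was thus smaller in Oct1 cKO than in parental cells. The order was the other way for Gcm1, with 3.74 ± 0.34 in Oct1 cKO and 1.64 ± 0.29 in parental cells, and for Esx1, with 1.89 ± 0.11 in Oct1 cKO and 0.42 ± 0.09 in parental cells. Tfap2c fell by 0.46 ± 0.08 in Oct1 cKO and by 1.52 ± 0.06 in parental cells, and Cdx2 by 2.42 ± 0.31 in Oct1 cKO and by 1.55 ± 0.32 in parental cells. Ets2 changed little, with 0.18 ± 0.06 in Oct1 cKO (adjusted p = 0.0077) and 0.28 ± 0.06 in parental cells. The Oct1 cKO call was lost in 11 alternatives, with adjusted p up to 0.105: DESeq2 size factors, DESeq2, no filter, a fit of the 2 groups alone, and leaving out any 1 parental day 2 or day 6 library or Oct1 cKO day 6 replicate 2. Without 1 of those 7 libraries the Ets2 value was 0.11 or 0.12. With library sizes not scaled, which moved the median of all genes to 0.42 in parental and 0.24 in Oct1 cKO cells, the parental changes of Esx1 and Ets2 became 0.76 and 0.62 and the Oct1 cKO changes of Tfap2c and Ets2 became -0.30 and 0.34. The genotypes' changes differed for 6 of the 10 genes over this interval, towards higher in Oct1 cKO for 4, against 30.1% of all genes, and lower for 2, against 26.9%. With library sizes not scaled, all genes split 10130 to 4589 between rising and falling in parental cells, against 7924 to 6913, and 4094 to 6317 between higher and lower in the difference of changes, against 5526 to 4937.

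Between the endpoints, day 6 over day 0, 8 genes rose in Oct1 cKO cells, against 41.4% of all genes, and Gcm1 and Tead4 fell, against 40.4%. The Oct1 cKO fall of Gcm1 rests on 1 count at day 6 against 10 at day 0, a ratio of day 0 to day 6 of 11.9 with a 95% counting interval from 1.69 to 515. In parental cells 6 rose, against 45.3%, and 4 (Gcm1, Tead4, Tfap2c and Esx1) fell, against 40.2%. Tfap2c was 3.43 ± 0.06 higher at day 6 than at day 0 on the log2 scale in Oct1 cKO and 0.64 ± 0.06 lower in parental cells. Esx1 was 3.37 ± 0.10 higher in Oct1 cKO and 1.44 ± 0.12 lower in parental cells. For both genes the endpoint changes thus had opposite signs in the genotypes. The genotypes' endpoint changes differed, all towards higher in Oct1 cKO, for 8 of the 10 genes, against 32% of all genes.

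Other genes of trophoblast stem cells and trophectoderm, 24 without the 10, were mostly higher too at day 6. Of these, 19 were higher in Oct1 cKO, 4 were lower and 1 was not called, with a median log2 fold change of 1.85. Spint1, a membrane serine protease inhibitor, averaged 103 ± 2.65 CPM in Oct1 cKO and 15.6 ± 0.431 CPM in parental libraries (SD, n = 3 each; 2.71). Cdh3, encoding P-cadherin, averaged 416 ± 14.9 CPM in Oct1 cKO and 118 ± 2.66 CPM in parental libraries (1.82). Krt7, a trophoblast keratin, averaged 379 ± 20.0 CPM in Oct1 cKO and 110 ± 10.1 CPM in parental libraries (1.79), and the fourth, Lgals3, had a log2 fold change of 2.06. The 4 lower genes, Bmp4, Duoxa2, Id2 and Ddah1, were named after their values were seen and had log2 fold changes of -1.68, -1.44, -0.53 and -0.22. Eomes, a T-box factor of trophoblast stem cells and also of primitive streak, was at 3.75 to 5.12 CPM in Oct1 cKO and 0.675 to 0.995 CPM in parental day 6 libraries, below its day 0 range in both. Gata3 was at 88.0 to 89.4 CPM in Oct1 cKO and 19.6 to 20.4 CPM in parental day 6 libraries. The summed level of the 24 genes was 5298 to 5760 CPM in Oct1 cKO and 1626 to 1752 CPM in parental libraries at day 6. At day 0, 14 of the 24 were higher and 5 lower, and at day 2, 10 were higher and 7 lower. Over all genes, 26.4% were higher and 27% lower at day 0. The shares were 33.7% and 33.6% at day 2, and 36.7% and 37.8% at day 6.

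Genes of differentiated trophoblast and placenta were called in both directions at day 6. Of 27 listed, 25 were in the table and 22 were tested; 15 were higher in Oct1 cKO, 5 were lower and 2 were not called, with a median log2 fold change of 1.53. Peg10, a paternally expressed gene required for placenta formation, averaged 14460 ± 349 CPM in Oct1 cKO and 3001 ± 55.0 CPM in parental libraries (SD, n = 3 each; log2 fold change 2.27), the monocarboxylate transporter Slc16a1 had a log2 fold change of 2.31, and Nrk had 2.10. Syna, encoding a syncytin that fuses cells of the labyrinth, was at 90.8 ± 0.659 CPM in Oct1 cKO and 18.6 ± 1.80 CPM in parental libraries (2.29) while Gcm1 was at or near 0.

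The 5 lower genes of that list were named after their values were seen. Tpbpa, the marker of spongiotrophoblast, averaged 36.5 ± 1.83 CPM in Oct1 cKO and 98.3 ± 6.89 CPM in parental day 6 libraries (SD, n = 3 each; log2 fold change -1.43) and had no count at days 0 and 2. Ctsj, a placental cathepsin, averaged 26.0 ± 2.82 CPM in Oct1 cKO and 64.5 ± 13.02 CPM in parental libraries (-1.31). The prolactin-family genes Prl3b1 and Prl8a9 were low, with log2 fold changes of -1.80 and -2.45, and Mdfi had -1.41. Prl3d1 (-0.27) and Ctsq (0.08) were not called. All of these but Mdfi lie on chromosome 13, and the prolactin and cathepsin genes belong to multigene families that can share reads, so the level of any 1 of them is uncertain. Tpbpa and the prolactin and cathepsin transcripts were thus detected at day 6 in both genotypes, and none of those tested was called higher in Oct1 cKO.

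**Figure D4:**
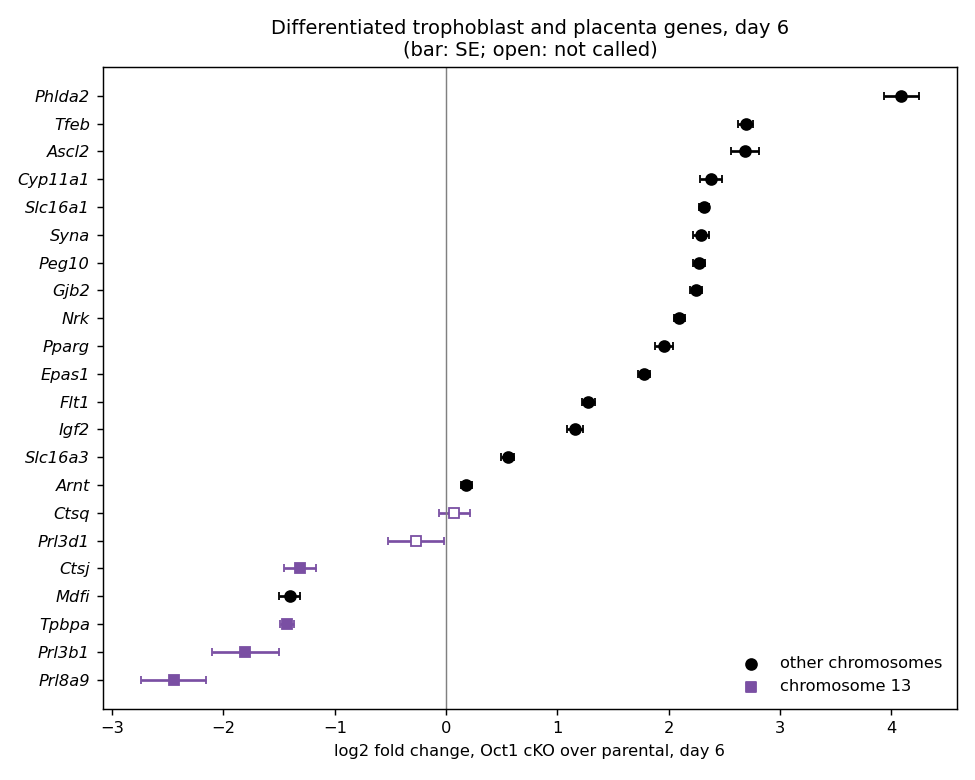
Log2 fold change of Oct1 cKO over parental at day 6 (horizontal axis) for the 22 tested genes of differentiated trophoblast and placenta; bars are SE, open symbols were not called, and squares mark chromosome 13. Slc16a1 lies at 2.31, below Phlda2, which averaged 17.8 CPM in Oct1 cKO and 1.05 CPM in parental libraries. Prl8a9, at -2.45, is lowest, with the squares at the bottom of the plot.

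Genes of the TEAD and Hippo pathway moved in both directions. Of 22 such genes, 12 were higher in Oct1 cKO at day 6, against 36.7% of all genes, and 6 lower, against 37.8%. Their median log2 fold change was 0.21. The other TEAD genes had log2 fold changes of 0.15 ± 0.09 for Tead1 (adjusted p = 0.152, not called), -0.29 ± 0.05 for Tead2 and 0.63 ± 0.05 for Tead3. The coactivator Yap1 had 0.05 ± 0.04 (0.293, not called). With library sizes not scaled the median of all genes moved to -0.19 at day 6, a shift larger than the Tead1 and Yap1 values. Among the called genes of smallest adjusted p were Vgll3, a TEAD cofactor (2.29), Amot (1.48) and Amotl2 (1.40), which bind YAP, and the TEAD target Ccn2 (0.98). At day 0, 4 of the 22 were higher, against 26.4% of all genes, and 15 lower, against 27%, Tead4 being higher. Ankrd1, a YAP target, had a day 0 log2 fold change of -2.38 and Ccn2 of -0.57. At day 6 Ankrd1 averaged 24.2 CPM in Oct1 cKO and 7.07 CPM in parental libraries, Ccn1 199.9 and 107.1 CPM, and Wwtr1 208.5 and 148.8 CPM. These genes are not among the 4 of smallest adjusted p at day 6. Others of the list went the other way and were named after their values were seen. Nf2 averaged 75.0 CPM in Oct1 cKO and 115.2 CPM in parental libraries, Vgll4 43.9 and 60.4 CPM, Lats1 63.15 and 78.1 CPM, and Amotl1 132.8 and 152 CPM.

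Of 18 tested paralogues of the 10 genes, 7 were higher at day 6, against 36.7% of all genes, and 5 lower, against 37.8%. Elf3, an epithelial ETS factor, averaged 272 ± 8.72 CPM in Oct1 cKO and 33.0 ± 1.80 CPM in parental libraries (SD, n = 3 each; log2 fold change 3.05). Elf1 had 1.50 and Tfap2a 2.41. Cdx1 was low, with 1.75 ± 0.145 CPM in Oct1 cKO and 0.120 ± 0.0318 CPM in parental libraries. Hand2, which shares lateral plate mesoderm and heart with Hand1, went the other way, with 1.59 ± 0.519 CPM in Oct1 cKO and 19.4 ± 1.70 CPM in parental libraries (-3.59). Dlx5 and Dlx6, distal-less genes of neural plate border and limb, were under 1 CPM on average in both groups and lower in Oct1 cKO.

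Markers of the other cell types in which these genes are used moved in several directions at day 6. Over all genes tested, 36.7% were called higher and 37.8% lower at that day. Of 16 caudal embryo and Cdx target genes, 3 were higher and 7 lower, with summed levels of 338 to 401 CPM in Oct1 cKO and 460 to 481 CPM in parental libraries. Most of the Oct1 cKO sum was Cyp26a1, a retinoic acid hydroxylase, which was higher in Oct1 cKO at 334 CPM on average, against 275 CPM in parental libraries, and without it, a split made after the values were seen, the sums were 31.85 to 34.7 CPM in Oct1 cKO and 192 to 195 CPM in parental libraries. Cdx4 was at 0 in all 6 libraries, T was at or below 0.156 CPM, and Hoxc8 had a log2 fold change of -4.61. The low transcripts Cdx1 and Tbx6 went the other way. Cdx1 averaged 1.75 CPM in Oct1 cKO and 0.120 CPM in parental libraries, and Tbx6 1.76 and 0.960 CPM. Of 17 lateral plate, extraembryonic mesoderm and heart field genes, 3 were higher and 12 lower. Their sums were 314 to 335 CPM in Oct1 cKO and 722 to 762 CPM in parental libraries. Kdr, which encodes a VEGF receptor, had a log2 fold change of -4.13. Gata4 (1.15) went the other way, and Tbx20 averaged 4.42 CPM in Oct1 cKO and 1.045 CPM in parental libraries. The part of caudal and mesodermal cells in the day 6 levels of Cdx2 and Hand1 was not tested. Of 17 surface ectoderm genes, 10 were higher and 5 lower, with sums of 3279 to 3740 CPM in Oct1 cKO and 891 to 976 CPM in parental libraries. Epcam had 2.72 and Grhl3 averaged 20.6 CPM in Oct1 cKO and 4.08 CPM in parental libraries, while Trp63 averaged 0.771 and 0.239 CPM in Oct1 cKO and parental libraries and Krt5 0.179 and 0.171 CPM. Krt14 went the other way, averaging 3.43 CPM in Oct1 cKO and 12.6 CPM in parental libraries. So did Wnt6 (1.67 and 3.09 CPM), Msx1 (0.985 and 1.80 CPM) and the low transcripts Dlx5 and Dlx6. These lower genes were named after their values were seen. The surface ectoderm list shares Tfap2a, Gata3, Krt8 and Krt18 with the trophoblast list. Most of its sums came from Krt8 and Krt18. They averaged 1514 and 1571 CPM in Oct1 cKO, and 416 and 426 CPM in parental libraries. The part of surface ectoderm in the levels of Dlx3 and Tfap2c was not tested.

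Of 18 visceral and parietal endoderm genes, 15 were higher and 3 lower, with sums of 18540 to 19930 CPM in Oct1 cKO and 11600 to 11870 CPM in parental libraries. Most of these sums came from Col4a1, Sparc and Lama1. They averaged 9474, 5603 and 2437 CPM in Oct1 cKO, and 4453, 4487 and 1439 CPM in parental libraries. Afp, the defining transcript of visceral endoderm, averaged 8.40 CPM in Oct1 cKO and 11.1 CPM in parental libraries, and Ttr averaged 41.7 CPM in Oct1 cKO and 5.03 CPM in parental libraries. Visceral endoderm transcripts were thus detected in both genotypes. Of 15 pluripotency genes, 10 were higher and 2 lower, with sums of 324 to 334 CPM in Oct1 cKO and 135 to 139 CPM in parental libraries. Pou5f1 was at 30.4 to 31.6 CPM in Oct1 cKO and 0.149 to 0.470 CPM in parental day 6 libraries. Zfp42 averaged 39.4 CPM in Oct1 cKO and 5.92 CPM in parental libraries, Esrrb 2.78 and 0.765 CPM, and Sox2 0.643 and 0.191 CPM. Nanog went the other way, with 0.342 CPM in Oct1 cKO and 1.345 CPM in parental libraries. Of 12 fibroblast genes, 1 was higher and 10 lower, with sums of 679 to 868 CPM in Oct1 cKO and 5019 to 5338 CPM in parental libraries. The part of these cell types in the day 6 differences of the 10 genes was not tested.

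**Figure D5:**
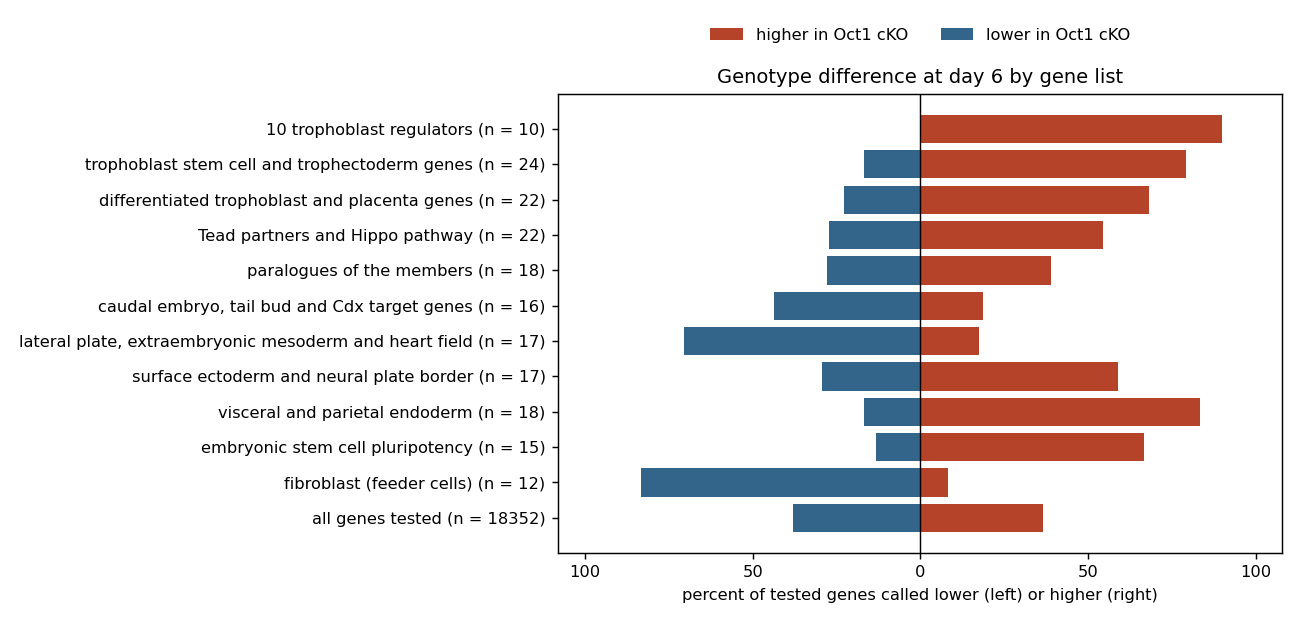
Percent of tested genes called lower (left of 0) or higher (right) in Oct1 cKO than in parental cells at day 6, for the 10 trophoblast regulators, for each gene list (number tested in parentheses) and for all 18352 genes. All genes split about evenly, the trophoblast, endoderm and pluripotency bars lie mostly to the right, and the lateral plate and fibroblast bars mostly to the left.

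Within the 10 genes, levels over the 18 libraries were most alike for Hand1 and Dlx3, with a Pearson correlation of log2 CPM of 0.97, and for Plac1 and Dlx3, with 0.95. Cdx2 and Gcm1 had the most opposed levels, with -0.95. The 18 points come from 6 groups, and the libraries of a group share genotype and day, so these values describe the courses and carry no test. Among genes averaging 1 or more in log2 CPM, those most like Plac1 were Dyrk2 (0.997), Gucd1 (0.996) and the trophoblast keratin Krt7 (0.993). Those most like Hand1 were Inafm2, Ctdspl and Parm1 (0.986 to 0.988), and Dlx3 had Mgat4b, Ctdspl and Arhgef11 (0.988 to 0.993), sharing Ctdspl with Hand1. Tead4 was most like Tdrp (0.992), Ets2 like Dmkn (0.991), Tfap2c like Snx30 (0.984), Esx1 like Ttc7b (0.979) and Cdx2 like Src (0.979). For Elf5 and Gcm1, whose values are near 0 in many libraries, the nearest were the ETS gene Elf1 (0.954) and Pgam2 (0.976), and no name of the Gcm1 set was kept when the prior count was 0.5. Dmkn, Src, Elf1, Parm1 and Arhgef11 were not kept either. With that prior count 21 of the 30 names were kept.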

How the data were processed

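The authors deposited raw counts, whole numbers of reads per gene and library, in 1 table for 18 libraries. Novoalign, the builds mm10 and GRCm38, and DESeq2 1.10.0 are named in the submitters' processing notes, without roles. Not given in the sources used here are the counter, annotation release and strand setting, and without strand a gene and an overlapping partner on the other strand share reads. Libraries were grouped by labelled genotype and day.

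Counts were scaled with TMM factors and tested in R 4.3.3 with the quasi-likelihood test of edgeR 4.0.16 (robust) on genes passing filterByExpr (minimum count 10, minimum total 15), with all 18 libraries in 1 fit, 12 comparisons of group coefficients and Benjamini-Hochberg adjustment within each comparison. SE was taken from the F statistic. Levels per kilobase and coordinates used GENCODE exons of GRCm38. The script was tested on simulated counts. No replicate pair fell within sampling noise. Counting intervals are exact, at 95%, and cover counting error only.

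The 10 genes, lists and motifs were chosen with earlier results of these data known. Named list genes are up to 4 called members of smallest adjusted p for a comparison, plus cell type markers. A gene of the lists is not reported here and is left out of their counts. The genes most alike are the 3 of highest Pearson correlation of log2 CPM (prior count 2). Alternatives were DESeq2 size factors, no scaling, no filter, DESeq2 1.42.0, leaving out each library, a fit restricted to the groups compared, and a prior count of 0.5 for the correlations.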

Additional observations from a re-analysis of the deposited data

Results flagged for a closer look

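The changes over time differed between Oct1 cKO and parental cells for most of the 10 genes, by edgeR's quasi-likelihood test of the difference between the changes (adjusted p under 0.05). Values are log2 fold changes, the Oct1 cKO change minus the parental change, with n = 3 libraries a group.

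Between days 0 and 2 the values were 1.05 for Tfap2c, 1.47 for Esx1, 2.10 for Gcm1, 0.36 for Tead4, -2.41 for Dlx3 and -3.36 for Plac1. The Tead4 value was lost with library sizes not scaled (0.18, adjusted p = 0.176) and without parental day 2 replicate 2 (0.24, 0.0818).

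Between days 2 and 6 the values were 1.57 for Cdx2, 3.01 for Tfap2c, 1.14 for Tead4, 0.90 for Ets2, 2.96 for Hand1, 4.49 for Dlx3, 3.35 for Esx1 and 5.04 for Plac1. Elf5 had 3.83, which was lost without parental day 2 replicate 1 (3.39, adjusted p = 0.0579) and became 7.47 without Oct1 cKO day 2 replicate 3.

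Between days 0 and 6 the values were 4.07 for Tfap2c, 4.81 for Esx1, 2.72 for Hand1, 2.08 for Dlx3, 1.50 for Tead4 and 0.80 for Ets2. Cdx2 had 0.70, lost with library sizes not scaled (0.51, adjusted p = 0.125). The Cdx2 call was also lost without parental day 0 replicate 1 (0.58, 0.133) or 2 (0.63, 0.104), parental day 6 replicate 2 (0.54, 0.105) or 3 (0.68, 0.0579), Oct1 cKO day 0 replicate 2 (0.65, 0.0698) or 3 (0.68, 0.0562), or Oct1 cKO day 6 replicate 1 (0.57, 0.0963). Plac1 had 1.68, lost with library sizes not scaled (1.49, adjusted p = 0.0625), without Oct1 cKO day 0 replicate 3 (1.56, 0.0745) and without parental day 0 replicate 3 (1.27, 0.248).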

How the results depend on the processing

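No paired analysis was possible because the labels give no replicate numbers. The replicate numbers used here were assigned within each group in the order of the sample titles. Counts of called genes, over all genes and over the 10, stayed within 1.5 times under the alternatives run, and the 9 day 6 calls held in all of them. Of the log2 fold changes of the 10 genes recomputed, 2681 kept direction and call, 37 lost a call, 8 gained one and 18 reversed.

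Reversals were among differences that were not called, when 1 library was left out, and the cause was not tested. For Oct1 cKO against parental, Elf5 ranged from -0.48 to 1.78, Hand1 from -0.85 to 0.19 and Dlx3 from -0.059 to 0.44 at day 0, and Cdx2 from -0.24 to 0.16 at day 2. From day 0 to day 2, Elf5 ranged from -4.14 to 0.24 in Oct1 cKO and from -0.031 to 2.05 in parental cells. The difference between the genotypes' changes ranged from -0.76 to 0.27 for Hand1 (days 0 to 2) and from -2.19 to 0.23 for Gcm1 (days 0 to 6). Of the 8 calls gained, 5 were of the difference between the changes of Elf5 over days 0 to 6 (2.85, adjusted p = 0.0661): under DESeq2 (2.86, 0.0325) and, with 2.83 to 3.57 and adjusted p of 0.0179 to 0.0447, in 4 of the fits that left out a library. Elf5 also gained its day 2 call without Oct1 cKO day 2 replicate 3 (-4.40, 0.0472). In the fit of only the libraries compared, Elf5, Gcm1, Hand1, Dlx3 and Plac1 failed the filter in 1 or more comparisons and have no value there. Depth limits Elf5 at days 0 and 2 and Gcm1 at day 6, which rest on a few counts.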
